A study of Mus musculus with 8 samples.

Results

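The planar cell polarity genes described here are 10 genes of the system that orients cells within the plane of an epithelium: Vangl1, Vangl2, Celsr1, Scrib, Ptk7, Dvl1, Dvl2, Dvl3, Fzd6 and Prickle1. They were taken by symbol, and all 10 were found among the 26608 gene symbols listed for every library. Their levels were compared between open neural tube and abnormal outgrowths of the neural plate, called protrusions, in mouse embryos of diabetic mothers. The 8 libraries came from FVB embryos at embryonic day 8.5, cut by laser from cryosections. Of these, 4 libraries, numbered 9, 10, 13 and 14, hold open neural tube taken just in front of closure site 1, the place where the neural folds first meet. Protrusions gave the other 4: the morphology labels call protrusion 1 separated and protrusions 2, 3 and 4 attached. All 8 libraries thus share the strain, the stage and the diabetic mother, and embryos of nondiabetic mothers are not analysed here. The labels do not say at which axial level the protrusions lay, nor whether each library came from its own embryo, and the titles of protrusions 1 and 2 share their first part, so p-values measure only the spread between these libraries.

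Planar polarity is set by protein complexes that gather on opposite faces of each cell. In the classic scheme, the transmembrane protein Vangl and its cytoplasmic partner Prickle lie on one face, the receptor Frizzled and its adaptor Dishevelled lie on the opposite face, and the cadherin Celsr bridges neighbouring cells. In the neural plate the system drives convergent extension, which narrows and lengthens the tissue before its folds close. Mouse mutants of Vangl2, Celsr1, Scrib and Ptk7, and mutants lacking both Dvl1 and Dvl2, are known for failure of closure site 1, which leaves the hindbrain and spinal neural tube open.

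Expression was measured by SAGE, serial analysis of gene expression, which counts 1 short sequence tag per transcript, cut out beside an enzyme site towards its 3′ end. A count therefore does not grow with transcript length, and levels are given as counts per 1000000 counts of the library (CPM). Library totals ranged from 5668054 to 16655583 reads, so the level of 3 reads, used as the limit that a count of 0 allows, lay between 0.180 and 0.529 CPM. This limit and the intervals of shares given below cover counting error only. The open neural tube libraries held fewer different genes: after thinning to the smallest total, 9920 to 11257 genes had a read there, against 14402 to 15542 in protrusions. Of the 3280 genes whose mean lay between 5 and 20 CPM, an open neural tube library missed 4.85% to 18.8% and a protrusion library 0.0915% to 0.549%. Of the 10 members, 5 had mean levels under 20 CPM in both groups, and the part of this gap in their values was not tested.

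For the genes on which the results turn, the tag that such a library reads was predicted as the last CATG of the annotated transcript and the 22 bases after it. The sequences below come from the GENCODE transcripts of build GRCm38 and are shown 5′ to 3′ on the transcript strand, with the CATG in capitals. They mark the stretch of each message predicted to be counted, and the 3 Dvl paralogs carry different predicted tags. Other tags may also have been counted for a gene. The files were mapped to build mm9, with the authors' way of assigning tags to genes not given in the sources used here.
Prickle1: CATGctggatttgaactaatgagcgg
Ptk7: CATGggcggcctttgtattattgcag
Celsr1: CATGgcctggggtcacgcactgccaa
Dvl1: CATGtgccactgccatcccggcacag
Dvl2: CATGttgagggtgggtggtggtcagt
Dvl3: CATGgcaatgggaaaccccagtgagt
The Prickle1 tag lies at chr15:93499220-93499245 on the minus strand, the Ptk7 tag at chr17:46564666-46564691 on the minus strand and the Celsr1 tag at chr15:85899243-85899268 on the minus strand, each in the 3′ UTR. Those of Dvl1, at chr4:155859141-155859166, and Dvl2, at chr11:70009936-70009961, lie in the 3′ UTR on the plus strand. The Dvl3 tag, at chr16:20531471-20531496 on the plus strand, falls in the coding sequence of the annotated transcript. None of the 10 predicted tags occurred in a transcript of another annotated gene.

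Protrusions and open neural tube differed most in Prickle1 and Ptk7, whose mean levels were several times higher in protrusions, and in Celsr1, which was read only in protrusions. The Vangl, Scrib, Dvl and Fzd6 genes differed less. No member passed the threshold of 0.05 on the adjusted p in edgeR's quasi-likelihood test with Benjamini-Hochberg adjustment over the 11036 genes tested. That is 0 of the 9 members tested, against 0.607% of all genes, of which 31 (0.281%) were higher and 36 (0.326%) lower in protrusions. Prickle1 and Ptk7 had an unadjusted p under 0.05 in edgeR, 2 of 9 members, as did 15.3% of all genes. DESeq2 called the same 2 members, where it called 7.2% of all genes. Fitted log2 fold changes of protrusion against open neural tube were above 0 in 7 members and below 0 in 2, with a median of 0.28 against 0.08 for all tested genes.

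**Figure D1:**
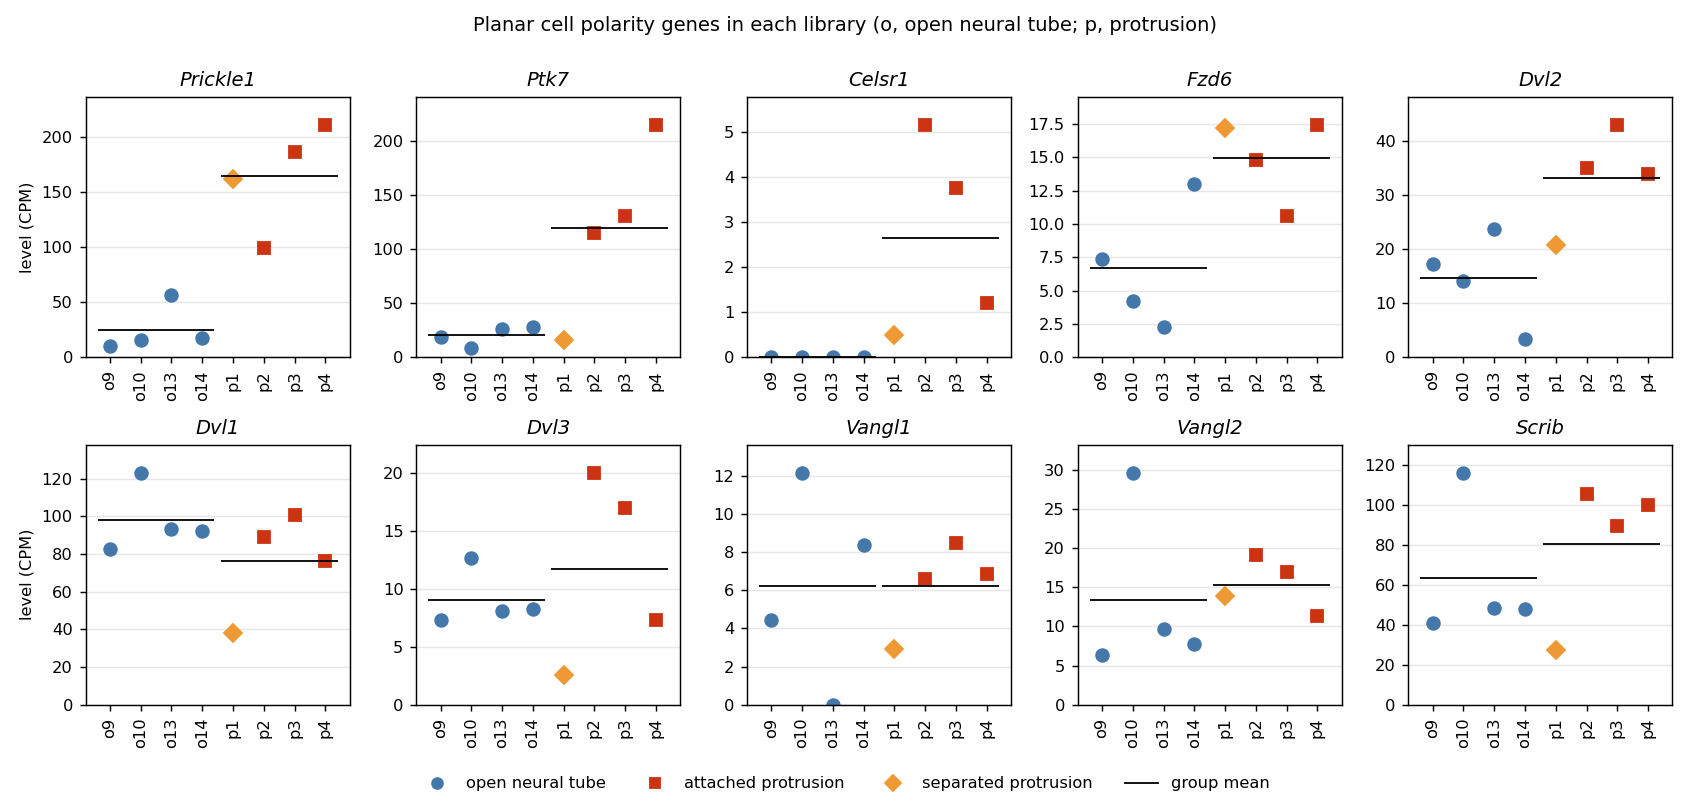
Level of each of the 10 genes in CPM (y axis, linear, a scale per gene) in each library (x axis), with circles for open neural tube, squares for attached protrusions, a diamond for the separated protrusion and lines at group means. Every Prickle1 value of the protrusions, 99.2 to 211 CPM, lies above the open neural tube values, while the separated protrusion sits among the open neural tube in Ptk7, at 16.4 CPM.

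Prickle1 encodes a LIM-domain protein that binds Vangl on its face of the cell. Its level was 10.4, 15.9, 57.0 and 17.7 CPM in open neural tubes 9, 10, 13 and 14. In protrusions 1 to 4 it was 162, 99.2, 186 and 211 CPM. The groups did not overlap, and the separated protrusion lay among the attached ones. Group means were 25.2 ± 21.4 CPM in open neural tube and 165 ± 48.0 CPM in protrusions (SD, n = 4 each). The fitted log2 fold change was 2.59 ± 0.52 (SE), with a 95% interval from 1.43 to 3.75, and an adjusted p of 0.0575 in edgeR. Whether Prickle1 passed therefore turned on the setting. It was called in 7 of 16 alternatives, with adjusted p from 2.79e-05 in DESeq2 to 0.177 in edgeR without protrusion 4, and its log2 fold change stayed between 2.41 and 3.45. Among the libraries left out in turn, open neural tube 13, where Prickle1 was highest within its group, gave the lowest adjusted p: without it the fold change was 3.45 ± 0.33 and the adjusted p in edgeR 0.00954, in a fit that called 0.453% of all genes.

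Other Prickle genes were read at much lower levels. Prickle2 was at 4.25, 0.353, 6.54 and 0 CPM in open neural tube and at 11.6 to 13.5 CPM in protrusions, with no overlap and an adjusted p of 0.500 in edgeR. Prickle3 had no read in open neural tube and 1.58 to 4.81 CPM in protrusions. Its adjusted p was 0.0824 in edgeR, 0.00284 in DESeq2 and 0.0274 in limma-voom. It passed the filter on low counts through the protrusions alone, so these adjusted p are no separate support. Its protrusion mean was 3.29 CPM, and of the genes with a protrusion mean of 1 to 5 CPM, 15.6% had no read in any open neural tube library. Prickle4 had reads in 1 library alone, protrusion 3, at 0.262 CPM.

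Vangl1 and Vangl2 encode the paired transmembrane proteins of the Prickle side, and Vangl2 is the gene of the loop-tail mouse. Vangl2 stood at 6.42, 29.6, 9.73 and 7.76 CPM in open neural tube and at 13.9, 19.1, 17.0 and 11.3 CPM in protrusions 1 to 4. Each protrusion exceeded open neural tubes 9, 13 and 14, and none reached open neural tube 10. The means were 13.4 ± 10.9 and 15.3 ± 3.41 CPM (SD, n = 4 each), the log2 fold change was 0.14 ± 0.57 (95% interval −1.13 to 1.40) and the adjusted p in edgeR 0.948. Leaving out open neural tube 10 gave 0.88 ± 0.43, with an adjusted p of 0.331 in edgeR. Vangl1 was lower still, at 4.44, 12.2, 0 and 8.36 CPM in open neural tube and 2.94, 6.60, 8.49 and 6.85 CPM in protrusions. Open neural tube 13 held 0 Vangl1 reads, although it was the deepest library, with a limit of 0.180 CPM. Group means of Vangl1 were 6.24 ± 5.22 and 6.22 ± 2.34 CPM (SD, n = 4 each). Its log2 fold change of −0.07 ± 1.27 had a 95% interval from −2.90 to 2.75, so that a difference of several fold in either direction was not resolved (edgeR adjusted p 0.991). Within the pair, Vangl1 took 30.5 ± 22.3% of the reads in open neural tube (range 0% to 51.9%) and 28.6 ± 8.91% in protrusions (17.5% to 37.7%), and Vangl2 the rest. The summed level of the pair was 19.6 ± 15.0 and 21.5 ± 4.69 CPM.

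Celsr1 encodes the membrane-spanning cadherin that links neighbouring cells, and mutation of it gives the crash mouse. Its reads numbered 0 in all 4 open neural tube libraries, and 3, 36, 43 and 10 in protrusions 1 to 4. Those correspond to 0.491, 5.16, 3.76 and 1.20 CPM, a mean of 2.65 ± 2.18 CPM (SD, n = 4). Against the largest limit of an open neural tube library, 0.529 CPM, the protrusion mean was at least 5.01-fold higher. The separated protrusion, at 3 reads, stood at that limit. Absence at this level was common in open neural tube: among the 2949 genes with a protrusion mean of 1 to 5 CPM, 460 (15.6%) had no read in any open neural tube library. Celsr1 did not pass the filter on low counts, and in the 7 alternatives that kept it the adjusted p ran from 0.0599 to 0.119 in edgeR. Those fits kept it through its protrusion reads alone, so their adjusted p is no separate support. The Celsr1 paralogs were read in both tissues. Celsr2 was at 49.7, 14.3, 0.0600 and 3.10 CPM in open neural tube and at 11.9 to 25.0 CPM in protrusions, and Celsr3 at 0, 17.8, 0 and 4.89 against 2.29 to 9.62 CPM. Both overlapped between the groups, with adjusted p of 0.973 and 0.974 in edgeR.

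Fzd6, a Frizzled receptor of the opposite face, acts with Fzd3 in mouse neural tube closure. It was read at 7.41, 4.23, 2.28 and 13.01 CPM in open neural tube and at 17.2, 14.8, 10.6 and 17.4 CPM in protrusions. Protrusion 3 fell below open neural tube 14, the one overlap between the groups. The means were 6.73 ± 4.69 and 15.0 ± 3.17 CPM (SD, n = 4 each), with a log2 fold change of 1.07 ± 0.66 (95% interval −0.39 to 2.54) and an adjusted p of 0.501 in edgeR. Fzd3 was far more abundant and lay on the other side of 0. Its levels were 392, 370, 113 and 354 CPM in open neural tube and 231, 152, 127 and 165 CPM in protrusions, where open neural tube 13 was the lowest of all. The log2 fold change of Fzd3 was −0.94 ± 0.36, with an adjusted p of 0.242 in edgeR. In the 6 libraries other than open neural tube 13 and protrusion 1 it was −1.41, with an adjusted p of 0.0276 in edgeR. That fit was chosen after seeing the data and called 1.88% of all genes. It left out the lowest open neural tube value and the highest protrusion value of Fzd3, so a larger difference followed from the choice.

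Dvl1, Dvl2 and Dvl3 encode Dishevelled, the adaptor that carries the Frizzled signal to the cytoskeleton. Dvl1 was the most abundant member in open neural tube, at 82.9, 123, 93.1 and 92.2 CPM, and measured 38.1, 89.2, 101 and 76.4 CPM in protrusions 1 to 4. The separated protrusion lay well under every other library. Means were 97.9 ± 17.6 and 76.1 ± 27.2 CPM (SD, n = 4 each), the log2 fold change was −0.46 ± 0.28 (95% interval −1.09 to 0.18) and the adjusted p in edgeR 0.512. Dvl2 went the other way, from 17.4, 14.1, 23.8 and 3.46 CPM to 20.8, 35.1, 43.0 and 33.9 CPM, with means of 14.7 ± 8.51 and 33.2 ± 9.23 CPM (SD, n = 4 each). Its attached protrusions all exceeded the open neural tube, and the separated one did not. The log2 fold change of Dvl2 was 1.07 ± 0.53 (95% interval −0.12 to 2.25), with an adjusted p of 0.380 in edgeR. Dvl3, the least abundant, was at 7.31, 12.7, 8.11 and 8.24 CPM in open neural tube and at 2.62, 20.1, 17.0 and 7.33 CPM in protrusions. That spread left its log2 fold change at 0.28 ± 0.69 (95% interval −1.26 to 1.82, edgeR adjusted p 0.905).

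The makeup of the Dvl family differed more clearly than its total. Summed over the paralogs, Dvl reads stood at 122 ± 21.1 CPM in open neural tube and 121 ± 43.5 CPM in protrusions (SD, n = 4 each). Dvl1 took 77.1%, 82.1%, 74.5% and 88.7% of these reads in open neural tubes 9, 10, 13 and 14, and 62.0%, 61.8%, 62.7% and 65.0% in protrusions 1 to 4. The groups did not overlap, and the separated protrusion was like the attached ones in this share. For Dvl2 the shares were 16.1%, 9.40%, 19.1% and 3.33% in open neural tube and 33.8%, 24.3%, 26.8% and 28.8% in protrusions, also without overlap. Dvl3 held 7.42 ± 0.935% and 8.74 ± 4.33%. In mean, Dvl1 went from 80.6 ± 6.29% to 62.8 ± 1.47% and Dvl2 from 12.0 ± 7.04% to 28.4 ± 4.01% (SD, n = 4 each). The shares rest on 376 to 2083 Dvl reads a library, and the 95% Wilson interval of the Dvl2 share nearest to the other group ran from 17.4% to 20.8% in open neural tube 13 and from 21.8% to 27.1% in protrusion 2. Such a share does not depend on the scaling between libraries. Shares within a family depend on each other, so those of Dvl1 and Dvl2 are not separate results. No background was computed for shares. By level, 8.84% of all genes tested lay higher and 4.55% lower in every protrusion than in any open neural tube. What part the fewer genes read in open neural tube play was not tested. The share is a description without a test, and the fitted fold changes of Dvl1 and Dvl2 did not pass one.

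**Figure D2:**
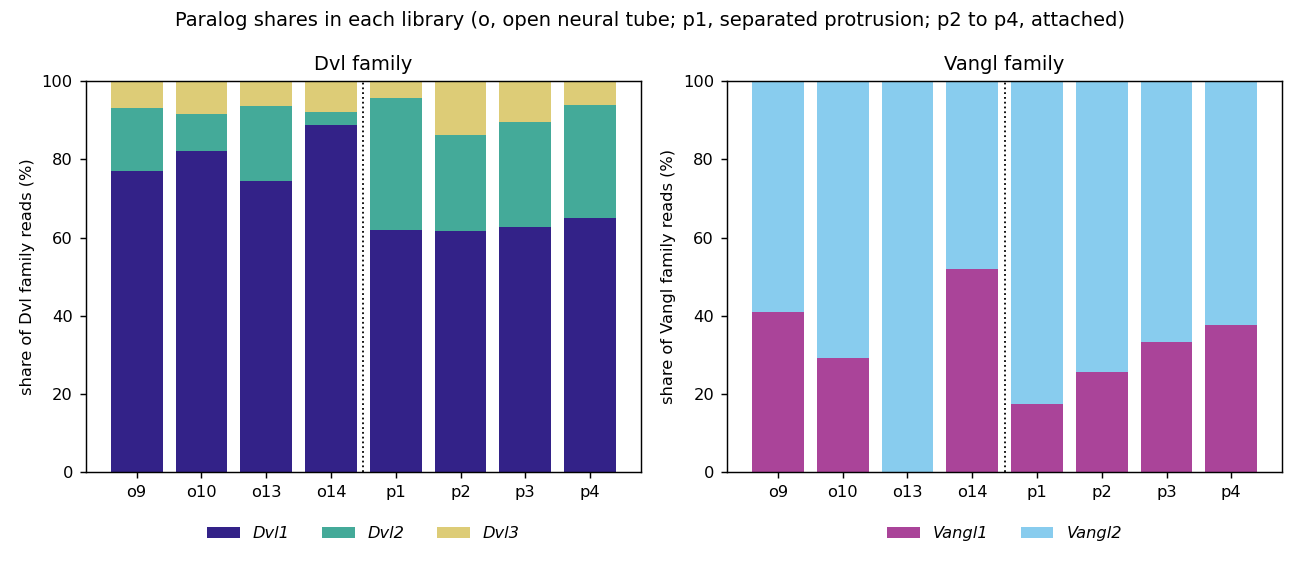
Share of the Dvl family reads (left) and of the Vangl family reads (right) taken by each paralog, in percent (y axis, from 0) in each library (x axis); the dotted line parts open neural tube from protrusions. Dvl1 fills 74.5% to 88.7% of the open neural tube bars and 61.8% to 65.0% of the protrusion bars, while the Vangl1 share runs from 0% to 51.9% within open neural tube alone.

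Ptk7 encodes a catalytically inactive receptor tyrosine kinase that acts with the core proteins. Open neural tubes 9, 10, 13 and 14 gave 18.8, 8.29, 26.2 and 28.3 CPM. The attached protrusions 2, 3 and 4 gave 115, 131 and 214 CPM, and the separated protrusion gave 16.4 CPM, within the range of the open neural tube. The separated protrusion thus held 0.107 times the mean of the attached ones, which was 153 ± 53.4 CPM (SD, n = 3), or 7.52 times the open neural tube mean of 20.4 ± 9.05 CPM (SD, n = 4). Over all 4 protrusions the mean was 119 ± 81.2 CPM, the log2 fold change 2.44 ± 0.66 (95% interval 0.97 to 3.91) and the adjusted p in edgeR 0.0950. With the separated protrusion left out, the log2 fold change was 2.80 ± 0.45 and the adjusted p in edgeR 0.0309, in a fit that called 1.5% of all genes. DESeq2 on all libraries gave an adjusted p of 0.00304. Ptk7 was called in 3 of 16 alternatives, and its log2 fold change lay between 1.97 and 2.96 in all of them.

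Scrib encodes a scaffold protein of the basolateral membrane that binds Vangl2. It was read at 41.0, 116, 48.4 and 48.0 CPM in open neural tube and at 27.6, 106, 89.8 and 100 CPM in protrusions 1 to 4. In each group 1 library ran against its neighbours: open neural tube 10 was the highest of all, and the separated protrusion the lowest. The means were 63.5 ± 35.5 and 80.8 ± 36.1 CPM (SD, n = 4 each), and the log2 fold change of 0.28 ± 0.45 had a 95% interval from −0.71 to 1.27 (edgeR adjusted p 0.834). The attached protrusions alone averaged 98.5 ± 8.03 CPM (SD, n = 3). Without open neural tube 10 the log2 fold change was 0.76 ± 0.42, with an adjusted p of 0.396 in edgeR.

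**Figure D3:**
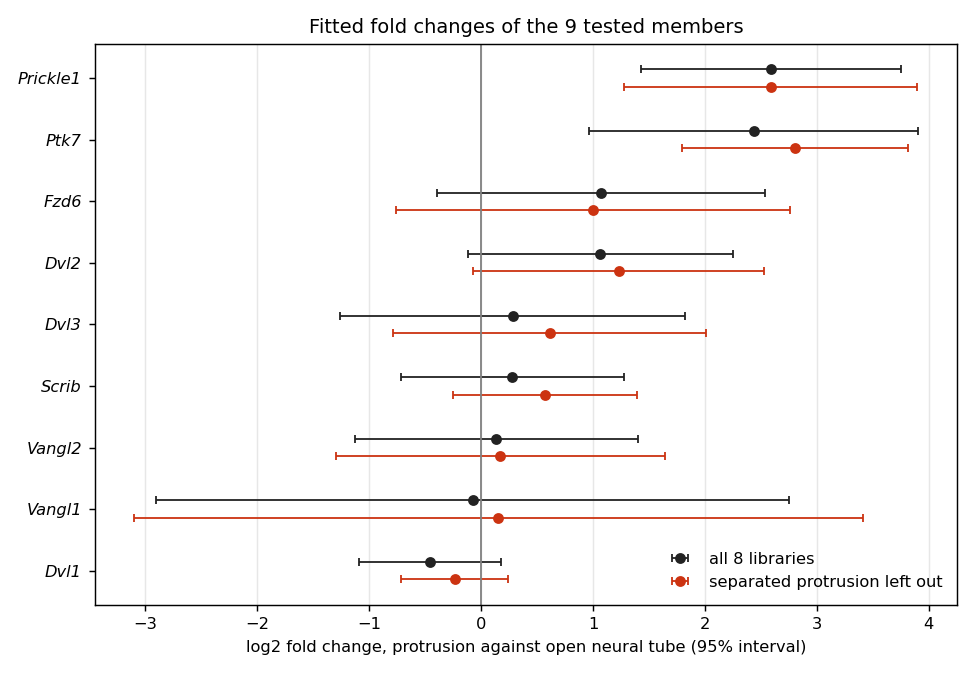
Fitted log2 fold change of protrusion against open neural tube (x axis) for the 9 tested genes, with 95% intervals, from all 8 libraries (black) and with the separated protrusion left out (red). The intervals of Prickle1 and Ptk7 lie above 0 in both fits, and those of the other 7 genes cross 0.

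Across the set, protrusions exceeded every open neural tube library in 2 of 10 members, Prickle1 and Celsr1. Among the members tested this is 1 of 9, against 8.84% of all genes tested, and no member had every protrusion below, against 4.55%. With the attached protrusions alone, the groups separated in 4 members, Celsr1, Ptk7, Dvl2 and Prickle1. Of these 3 were among the 9 tested, where 16.9% of all genes tested lay higher and 7.19% lower in this way. The separated protrusion was the lowest of the protrusions in 7 of 10 members, all but Vangl2, Fzd6 and Prickle1, and the highest in 0. Among the 9 tested it was the lowest in 6, where 34.3% of all genes tested were lowest and 28.1% highest in it. It is a lone library of its kind, so this difference has no replicate check.

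The order of the levels changed at its top. In open neural tube the mean levels ran Dvl1, Scrib, Prickle1, Ptk7, Dvl2, Vangl2, Dvl3, Fzd6, Vangl1 and Celsr1, and each neighbouring pair overlapped in its library values. In protrusions the order was Prickle1, Ptk7, Scrib, Dvl1, Dvl2, Vangl2, Fzd6, Dvl3, Vangl1 and Celsr1, and Dvl2 and Vangl2 were the one neighbouring pair without overlap. Prickle1 thus moved from the third place to the first and Ptk7 from the fourth to the second, both past Dvl1, by mean levels whose libraries overlap.

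The calls for Prickle1 and Ptk7 moved with the setting in different ways. Changes of scaling took Prickle1 to or just across the threshold, with adjusted p in edgeR of 0.0503 under relative log expression (0.806% of all genes called), 0.0480 under upper-quartile scaling (0.933%) and 0.0473 without scaling factors (0.888%). A stricter filter of 20 CPM in 4 libraries gave 0.0355 in edgeR (2.81% called) and limma-voom gave 0.0269 (3.35% called). Ptk7 crossed it in DESeq2 and where the separated protrusion was left out. A fit of the 6 libraries other than protrusion 1 and open neural tube 13, chosen after seeing the data, gave adjusted p in edgeR of 0.0103 for Prickle1 and 0.0406 for Ptk7, and called 1.88% of all genes. It left out the highest open neural tube value of Prickle1 and the lowest protrusion value of Ptk7, so larger differences followed from the choice. That fit is counted among the 16 alternatives of each gene, of which 7 called Prickle1 and 3 called Ptk7.

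**Figure D4:**
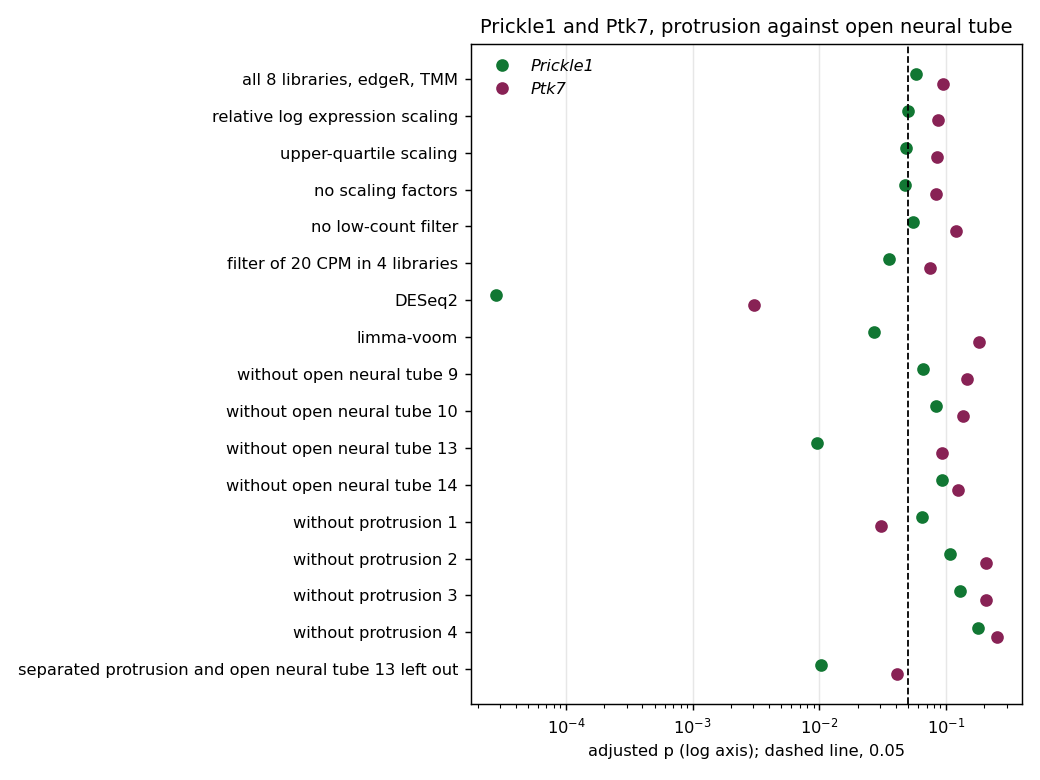
Adjusted p of Prickle1 and Ptk7 (x axis, log scale) in the fit of all 8 libraries and in each alternative (y axis); the dashed line is the threshold of 0.05. Points left of the line are calls, 7 alternatives for Prickle1 and 3 for Ptk7, and the fit of all libraries falls to the right of it for both, at 0.0575 and 0.0950.

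Cell type markers differed between the same libraries. Primitive streak and axial progenitor markers, 8 genes with T as the most abundant, summed to 2.96 to 26.3 CPM in open neural tube, 154 CPM in the separated protrusion and 689 to 1075 CPM in attached protrusions, with Cdx4, Nkx1-2 and Mixl1 at 0 in all open neural tube; 1 of 4 tested, Cdx2, was called. In this sum, as in Ptk7, the separated protrusion lay far below the attached ones, while in Prickle1 it did not. Paraxial mesoderm markers, 8 genes led by Pdgfra, summed to 620 CPM in the separated and 731 to 1096 CPM in attached protrusions, with 2 of 6 tested, Tbx6 and Dll3, called. In open neural tube they summed to 96.2 to 858 CPM. The highest, open neural tube 13, was also the open neural tube with the highest Prickle1 and no Vangl1 read. Its sum came mainly from Pdgfra at 475, Meox1 at 184 and Foxc2 at 180 CPM, genes that overlapped between the groups. Tbx6 and Dll3 were at 0.180 and 1.98 CPM there, against 26.5 to 285 and 6.71 to 369 CPM in protrusions. Msgn1 was at 0 in all open neural tube and Hes7 in every library. Open neural tube 13 also had the lowest neural sum, 88.6 CPM for 8 genes led by Sox2. The other open neural tubes reached up to 967 CPM, the separated protrusion 891 CPM and attached protrusions 235 to 565 CPM. Genes of this sum went different ways. Sox1 was at 15.3 to 99.6 CPM in open neural tube, 108 CPM in the separated and 4.01 to 6.85 CPM in attached protrusions. Pax3 was also lower in every attached protrusion than in any open neural tube. Sox3 was higher there, at 23.9 to 50.7 CPM, against 0 to 3.18 CPM in open neural tube and 0 in the separated protrusion. Nkx6-1 was at 0 in every library. Surface ectoderm markers, 7 of 8 found and led by Cdh1, summed to 50.7 to 320 CPM in open neural tube and 137 CPM in the separated protrusion. Attached protrusions 2, 3 and 4 gave 156, 1039 and 143 CPM, with Cdh1 alone at 871 CPM in protrusion 3. Cldn6 was at 0 in all open neural tube. What part these cell types play in the levels of Prickle1, Ptk7 and Celsr1 was not tested, and in bulk tissue fewer cells of a type and less RNA per cell cannot be told apart.

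Only the primitive streak and axial progenitor sum lay higher in every protrusion than in any open neural tube, as Prickle1 did. Sums of the other marker lists, those below included, overlapped between the groups. Endothelial markers (8 genes, led by Egfl7) summed to 57.4 to 307 CPM in open neural tube, 123 CPM in the separated and 37.1 to 45.8 CPM in attached protrusions, with Kdr and Flt1 at 0 in all open neural tube. Blood markers (6 genes, led by Hba-x, with Hbb-y at 0 throughout) ranged from 1.06 to 1009 CPM in open neural tube and from 1.00 to 46.9 CPM in protrusions. Those of notochord and floor plate (6 genes, led by Foxa2, with Noto at 0 in all open neural tube) gave 20.2 to 54.7 CPM in open neural tube, 7.53 CPM in the separated and 46.9 to 83.2 CPM in attached protrusions. Neural crest markers (5 of 6 found, led by Sox9, with Foxd3 at 0 in all open neural tube) gave 31.6 to 77.6 CPM and 22.7 to 34.4 CPM.

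The wider pathway was read through 6 lists of 68 genes in all, the members included, of which 66 were found and 60 tested. Of these, 1 gene passed the threshold in edgeR, Fzd7, against 0.607% of all genes, 11 (18.3%) had an unadjusted p under 0.05 where 15.3% of all genes did, and the median log2 fold change was 0.12. Without the members, 1 of 51 passed and the median was −0.10. By level, 6 of the 60 tested lay higher and 1 lower in every protrusion than in any open neural tube. Of all genes tested, 8.84% lay higher and 4.55% lower in this way. Prickle3, kept by the filter through the protrusions alone, is among the 11 and the 6. Fzd7, a Frizzled receptor of both canonical and noncanonical Wnt signals, fell from 1159, 862, 735 and 1371 CPM in open neural tubes 9, 10, 13 and 14 to 418, 223, 208 and 222 CPM in protrusions 1 to 4. The groups did not overlap, and the log2 fold change was −2.03 ± 0.30 with an adjusted p of 0.0261 in edgeR. That call was lost without open neural tube 9, 10 or 14 or without protrusion 2, 3 or 4, with adjusted p in edgeR up to 0.101 and log2 fold changes of −1.83 to −2.08.

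**Figure D5:**
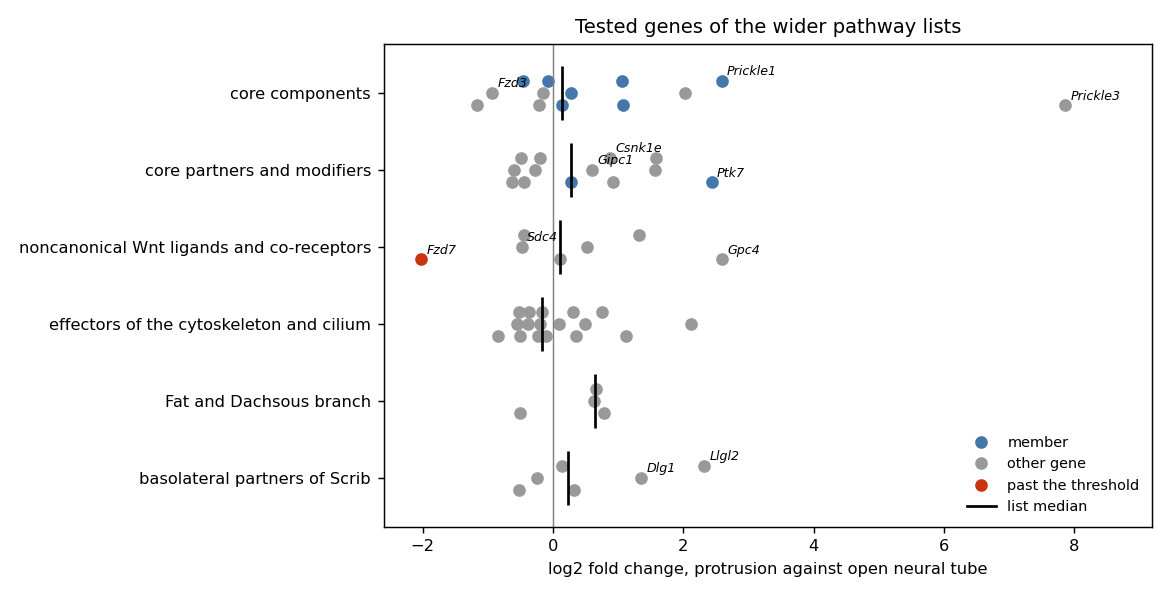
Fitted log2 fold change of protrusion against open neural tube (x axis) of every tested gene of the 6 pathway lists (y axis), with members in blue, Fzd7 in red and black bars at list medians; genes with an unadjusted p under 0.05 are named. List medians run from −0.16 to 0.65, and the far right point is Prickle3, whose fitted value is not a fold because it had no read in open neural tube.

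Among the 15 core components 13 were tested, 0 passed in edgeR in either direction, 3 had an unadjusted p under 0.05 and the median was 0.14. DESeq2 and limma-voom each called 2 of them, Prickle1 and Prickle3, the latter kept by the filter through the protrusions alone. Over all genes tested, DESeq2 called 7.2% and limma-voom 3.35%. Over the 60 tested genes of all lists, DESeq2 called 6 and limma-voom 4. The 13 core partners and modifiers, all tested, gave 0 calls in edgeR, 3 with an unadjusted p under 0.05 and a median of 0.28, while DESeq2 called 1, Ptk7, and limma-voom 0. Of these Gipc1, which encodes an adaptor that binds Vangl2, was at 82.4 to 109 CPM in open neural tube and 119 to 215 CPM in protrusions, without overlap, at 0.60 ± 0.24 on the log2 scale (edgeR adjusted p 0.265). Noncanonical Wnt ligands and co-receptors numbered 10, with 7 tested, Fzd7 lower and 0 higher in edgeR, and a median of 0.11. DESeq2 also called Gpc4, a glypican co-receptor for Wnt ligands, at an adjusted p of 0.0125, against 0.139 in edgeR. Gpc4 was at 5.04, 0.176, 7.26 and 5.37 CPM in open neural tube and at 16.03, 34.6, 39.3 and 28.9 CPM in protrusions 1 to 4, without overlap. The 18 effectors of the cytoskeleton and cilium, 17 of them tested, gave 0 calls in edgeR, DESeq2 and limma-voom, 0 with an unadjusted p under 0.05 in edgeR and a median of −0.16. Their smallest p belonged to Pfn1, the actin-binding profilin, at −0.38 ± 0.17, and to the stress kinase Mapk9, at −0.84 ± 0.43, with adjusted p of 0.326 and 0.394 in edgeR. In the Fat and Dachsous branch, another polarity system of large cadherins, 4 of 6 were tested, 0 were called by any of these tools, 0 had an unadjusted p under 0.05 in edgeR and the median was 0.65. There the cadherin Fat1 had a log2 fold change of 0.79 ± 0.38 and Fjx1, a kinase of the branch, one of 0.66 ± 0.39, with adjusted p of 0.362 and 0.476 in edgeR.

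The 6 basolateral partners of Scrib were all tested, with 0 calls in edgeR, 2 with an unadjusted p under 0.05 and a median of 0.23. DESeq2 and limma-voom each called 1, Dlg1, where they called 7.2% and 3.35% of all genes. Dlg1, the scaffold that works with Scrib at the basolateral membrane, was at 43.1, 33.9, 64.1 and 63.3 CPM in open neural tube and at 124, 135, 136 and 163 CPM in protrusions 1 to 4. Every protrusion exceeded every open neural tube, the separated one included. Its log2 fold change was 1.35 ± 0.26 and its adjusted p in edgeR 0.0528. It passed under every other scaling and filter tried, with adjusted p in edgeR from 0.0283 to 0.0428, and in DESeq2 (0.000193) and limma-voom (0.0282). With any library left out it did not pass, at adjusted p in edgeR of 0.0531 to 0.192 and log2 fold changes of 1.24 to 1.53. Llgl2, a lethal giant larvae homologue, had a larger value of 2.31 ± 0.87, but its protrusions ran from 4.25 to 164 CPM and overlapped the open neural tube (edgeR adjusted p 0.228).

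For the most abundant members over all libraries, the genes with the most similar profile were sought by the root mean square distance of log2 CPM, centred on each gene's mean over the 8 libraries, among 5670 genes. Nearest to Prickle1 lay Sema6a at 0.52, Mcc at 0.53 and Epha4 at 0.58, where the median gene lay at 1.66. All were highest within open neural tube in library 13, as Prickle1 was. Sema6a went from 29.1 ± 16.2 to 204 ± 121 CPM and Epha4, an ephrin receptor, from 16.6 ± 11.5 to 89.2 ± 23.4 CPM (SD, n = 4 each), with adjusted p of 0.0450 and 0.0723 in edgeR. Nearest to Dvl1 lay Nkain1 at 0.14, Gpc1 at 0.19 and 9830001H06Rik at 0.19, against a median of 0.67. Like Dvl1, all were lowest in the separated protrusion. These distances describe 8 libraries that share depth and tissue makeup across genes, and carry no test. The genes were picked by likeness over these same libraries. Their shared highs and lows, group levels and adjusted p therefore follow from the choice and are no separate evidence.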

How the data were processed

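The deposited files hold whole-number counts of reads per gene symbol, not normalized. Each SOLiD SAGE library was made from 7 to 12 ng of RNA, per the labels' protocols. Build mm9 is named in the submitters' processing notes, with the mapping program, tag rules and strand use not given in the sources used here. CPM (deposited counts per 1000000 of the library's total) was computed here. Groups follow the source names. Differences were tested 2-sided in R 4.3.3 with edgeR 4.0.16 on the counts as deposited (filterByExpr, minimum count 10, TMM factors, robust quasi-likelihood F test), with Benjamini-Hochberg adjustment over all genes tested and a threshold of 0.05. The standard error (SE) is the size of the log2 fold change over the square root of F. Log2 CPM used a prior count of 2. Alternatives were other scalings and filters, DESeq2 1.42.0, limma 3.58.1 voom and leaving out each library. The code was tested on simulated data. No libraries were alike within sampling noise. The members and lists were chosen with earlier results of these data known. All members are named. Each wider list gives its genes past the threshold or, where none passed, the 2 with the smallest p, and each marker list its most abundant gene. Of the members, the 2 most abundant give the 3 genes of nearest profile, with mean log2 CPM of at least 4. Prickle2, Prickle4, Celsr2, Celsr3, Fzd3 and Gpc4 were added after their values were seen.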

Additional observations from a re-analysis of the deposited data

Results flagged for a closer look

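The groups tested were levels and family shares of the members, and levels of the wider genes picked by the naming rule. In 46 groups of 4 libraries tested, 4 had a library far from the others, with a gap to the nearest above Dixon's critical value. Chance flags about 1 in 20 such groups. Vangl2 in open neural tube 10 was at 29.6 CPM, against 6.42 to 9.73 CPM in the other open neural tubes. Scrib in the same library was at 116 CPM, against 41.0 to 48.4 CPM. Prickle1 in open neural tube 13 was at 57.0 CPM, against 10.4 to 17.7 CPM. Fzd7 in the separated protrusion was at 418 CPM, against 208 to 223 CPM in the attached ones. Prickle2, Prickle4, Celsr2, Celsr3, Fzd3 and Gpc4, added later, were not among the groups tested. Of these, Fzd3 was at 113 CPM in open neural tube 13, against 354 to 392 CPM in the other open neural tubes.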

How the results depend on the processing

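Over all genes, the 67 calls became 103 under upper-quartile scaling, 157 with a filter of 20 CPM in 4 libraries, 795 in DESeq2, 370 in limma-voom, 1 to 172 when leaving out each library, and 211 without the separated protrusion and open neural tube 13, an alternative chosen after seeing the data. The 0 calls among members became 1 under upper-quartile scaling, no scaling factors, the 20 CPM filter and limma-voom, 2 in DESeq2, 0 to 1 when leaving out each library, and 2 without both libraries. The 1 call among the wider genes became 2 under relative log expression scaling, 3 under upper-quartile scaling, 3 without scaling factors, 2 without the filter, 3 with the 20 CPM filter, 6 in DESeq2, 4 in limma-voom, 0 to 2 when leaving out each library, and 4 without both libraries.

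The log2 fold change of Vangl1 turned to 0.0036 without scaling factors and 2.16 in limma-voom, and lay between −0.46 and 0.48 when leaving out each library. Over the same fits Vangl2 lay between −0.045 and 0.88 and Dvl3 between −0.10 and 0.61. For these reversals the cause was not tested. The tested members and the wider genes picked by the naming rule, 18 genes, had 283 alternative fold changes. Of these, 250 kept direction and side of the threshold, 19 newly passed it, 6 no longer did and 8 reversed. The new passes include those of Prickle3, kept by the filter through the protrusions alone. Genes added later, Fzd3 and Gpc4 among them, are not in this tally. Of the mean levels, 2 moved by over 1.5 times: Vangl2 in open neural tube was 7.97 CPM without library 10, against 13.4 CPM, and Prickle1 14.6 CPM without library 13, against 25.2 CPM. No paired analysis was possible because the groups share no replicate numbers. Vangl1, Celsr1 and Dvl3, with 0 to 194 reads a library, had intervals of several fold. So did Ptk7, with 47 to 1784 reads a library. What part read number played in these intervals was not tested.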
